A study of Mus musculus with 78 samples.

Results

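Smarca4, Smarcc1, Smarcb1, Arid1a, Smarca5, Chd1, Chaf1a, Chaf1b, Hira and Asf1a encode chromatin remodellers and histone chaperones, and their transcripts were followed in single blastomeres of 4-cell and 8-cell mouse embryos. The 10 genes were chosen by symbol and matched by Entrez number. All 10 were listed at both stages, among 15218 genes of the 4-cell table and 15342 of the 8-cell table. Full-length Smart-seq2 libraries had been made from the blastomeres of rainbow embryos, which carried 1 copy of the Brainbow2.1 cassette at Gt(ROSA)26Sor, driven by the CAG promoter, and 1 copy of Tg(CAG-cre/Esr1*)5Amc, a Cre fused to an estrogen receptor domain that enters the nucleus on tamoxifen. Embryos of both stages had been taken as 2-cell embryos at 46 h after the second hormonal injection (the time in the labels and methods, an earlier time being given elsewhere by the study), given 4-hydroxytamoxifen for 2 h, and grown on in KSOM medium. Every library thus came from a treated, cultured embryo of the same cross, and no untreated group was part of the tables used here. The labels list 36 samples of 9 embryos at the 4-cell and 31 samples of 4 embryos at the 8-cell stage, whereas the tables hold 24 and 26 blastomeres whose column names match none of them. The labels give a division lineage, A or B, to 12 and 12 of the 4-cell and to 13 and 13 of the 8-cell samples. These are the same totals as in the tables. The study restricted its analyses to 50 blastomeres of known lineage. Its totals of coding genes above FPKM 1 in at least 1 blastomere equal the 15218 and 15342 listed here. Not all listed genes meet that cut-off in these columns, Smarca1 for example reaching at most FPKM 0.868 at the 4-cell stage. Whether the columns are the samples of known lineage, and which is which, cannot be read from their names. The embryo and the division lineage of a blastomere were therefore unknown, each stage counted as 1 sample, and differences between stages have no replicate check and no test.

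Chromatin remodellers use ATP to slide, evict or restructure nucleosomes, and fall into the SWI/SNF, ISWI, CHD and INO80 families by the kind of motor subunit. Histone chaperones carry newly made or recycled histones to DNA: CAF-1 places H3 and H4 behind the replication fork, HIRA places the replacement variant H3.3 outside replication, and ASF1 hands histones to both. In the cleaving mouse embryo these proteins are first supplied by the oocyte and later made from embryonic transcripts, while parental chromatin is reorganised.

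The values were FPKM, that is, fragments scaled to the length of the transcript and to the depth of the library, so that levels are per length and can be compared between genes. A gene was called present in a blastomere above FPKM 1, the cut-off the study used. From the step size of low values, the fragments behind each blastomere were estimated at 6.86 to 16.9 M (median 13.3 M) at the 4-cell stage and at 2.33 to 21.7 M (median 17.2 M) at the 8-cell stage. At the median 4-cell depth FPKM 1 stood for 22.1 fragments of Smarcb1, the shortest member, and for 119 fragments of Arid1a, the longest. A member listed at 0 in a blastomere could have had at most FPKM 0.776 there, taking 3 fragments as the limit that a count of 0 allows. Blastomeres had 3009 to 8276 genes above FPKM 1 at the 4-cell stage and 3548 to 8078 at the 8-cell stage, with 3 blastomeres under 5000 genes at each stage. These 6 are called gene-poor. The limit was set at a round number and the next blastomeres had 5336 and 5106 genes, and several results are also given without the 6. In addition, 5 columns of the 8-cell table were named NA. The labels hold 5 8-cell samples with the lineage NA. Whether these columns are such samples or merely lack a name cannot be read from the headers. Of 8 blastomere markers, 7 had a median above FPKM 1 in 4-cell and 5 in 8-cell blastomeres, with a summed level of 1444 to 5103 and of 2750 to 10411, most of it from the maternal factor Dppa3. Of the markers of other cells few were listed, namely 3 of 8 for cumulus or granulosa cells and 2 of 4 for sperm at each stage, and 1 and 2 of 6 for other somatic cells. None of those listed had a median above FPKM 1, and their summed levels reached at most 3.06, 23.3 and 5.77.

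All 10 members were present in most blastomeres at both stages. Their medians passed FPKM 1, as did those of 6763 of 15218 listed genes (4-cell) and 6234 of 15342 (8-cell). Medians ran from FPKM 8.29 (Chaf1a) to 55.4 (Asf1a) at the 4-cell stage and from 5.01 (Chaf1a) to 64.1 (Smarca5) at the 8-cell stage. Over all genes with a median above FPKM 1, the middle 50% of medians lay between 5.71 and 52.8 among 6763 genes at the 4-cell stage and between 6.78 and 55.9 among 6234 genes at the 8-cell stage. The members fell into an upper tier of Asf1a, Chaf1b, Smarca5, Smarcb1 and Smarca4, with medians of 31.9 or more at both stages, and a lower tier of Arid1a, Smarcc1, Chd1, Hira and Chaf1a, with medians of 16.7 or less. Between every pair of neighbours in the order of medians, the middle 50% of blastomeres overlapped at both stages, the tiers included. The step between the tiers was nevertheless the steadiest within a blastomere, where Smarca4 exceeded Arid1a in 22 of 24 4-cell and in 19 of 26 8-cell blastomeres.

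Of the 10 members 5, Smarca4, Arid1a, Smarca5, Chd1 and Asf1a, were above FPKM 1 in each of the 24 4-cell blastomeres. The same held for 8.88% of all listed genes and for 20% of genes with a median above FPKM 1. At the 8-cell stage 3 of the 10, Smarca4, Smarca5 and Asf1a, were above FPKM 1 in each of 26 blastomeres, against 11.4% of listed genes and 28.1% of genes with a median above FPKM 1, a share close to this second background. The number at the 8-cell stage was 5 without the 3 gene-poor blastomeres. All 10 members were present together in 17 of 24 4-cell and in 14 of 26 8-cell blastomeres. The fewest were 7 in a 4-cell blastomere and 4 in an 8-cell blastomere, the latter holding only Smarca4, Arid1a, Smarca5 and Asf1a above FPKM 1.

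**Figure D1:**
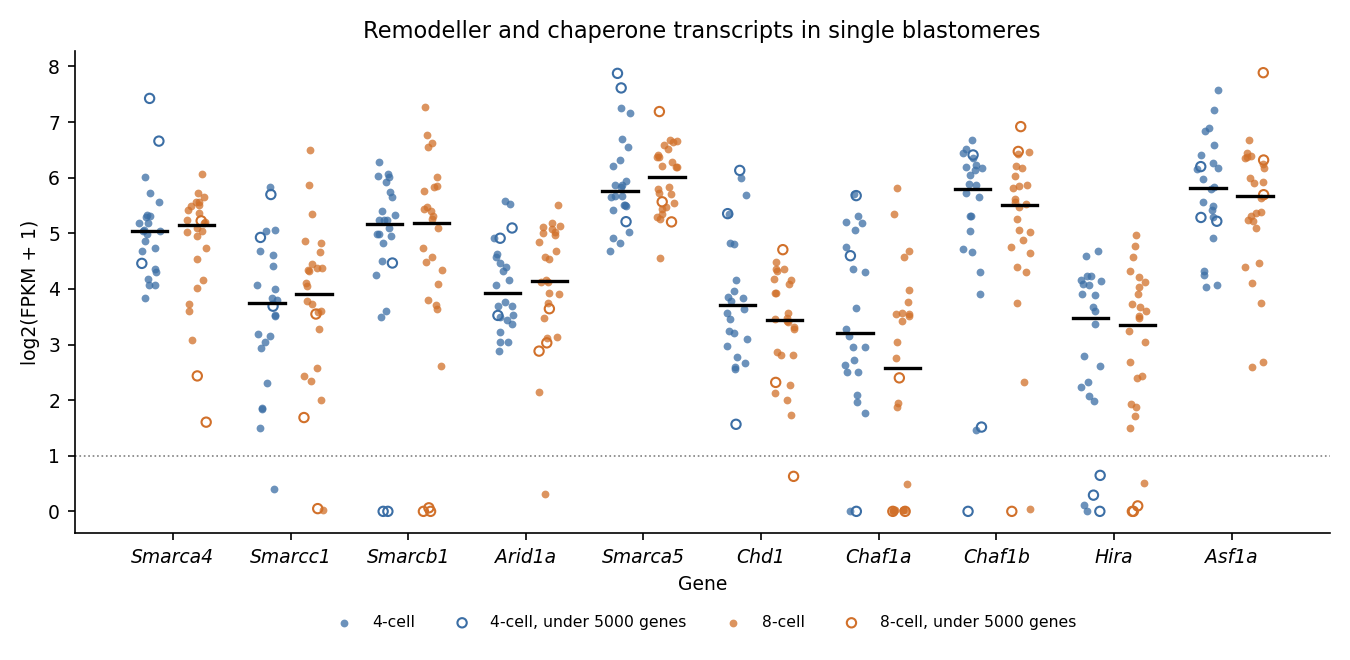
Each point is a blastomere (24 at the 4-cell, 26 at the 8-cell stage), the y axis is log2(FPKM + 1), black bars are medians, the dotted line marks FPKM 1 and open circles are blastomeres with fewer than 5000 genes above FPKM 1. Smarca4, Smarca5 and Asf1a stay above the line in all blastomeres of both stages, and 10 of 26 8-cell blastomeres lie below it for Chaf1a.

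Of the SWI/SNF genes, Smarca4 (chr9:21616106-21704230, GRCm38.p6, here and below), which encodes the BRG1 ATPase motor of the complex, was above FPKM 1 in all blastomeres of both stages. Its level ran from FPKM 13.3 over a median of 31.9 to 171 in 4-cell blastomeres and from 2.04 over 34.5 to 66.2 in 8-cell blastomeres. The ranges of the stages overlapped, and both 4-cell values of 100 or more came from gene-poor blastomeres, without which the highest value was 63.8. Arid1a (chr4:133679008-133756769), whose product is the large targeting subunit that defines the canonical BAF form, lay lower. It ran from 6.39 over 14.3 to 46.7 at the 4-cell stage and from 0.246 over 16.7 to 44.3 at the 8-cell stage, where a single blastomere was not above FPKM 1.

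Smarcc1 (chr9:110132024-110240178) encodes BAF155, a scaffold around which the complex is assembled. Its level spanned FPKM 0.324 to 55.7 with a median of 12.4 at the 4-cell stage, and 0.0190 to 89.0 with a median of 14.1 at the 8-cell stage. Most blastomeres lay within a few-fold of the median and a few far below, so that 23 of 24 and 24 of 26 blastomeres were above FPKM 1. Smarcb1 (chr10:75896769-75921614), which encodes the core subunit BAF47 that contacts the nucleosome, had a higher median than Smarcc1 and yet more blastomeres listed at 0. It ran from 0 over 35.1 to 76.7 at the 4-cell stage and from 0 over 35.3 to 154 at the 8-cell stage, and 22 of 24 and 23 of 26 blastomeres were above FPKM 1. Each of the 5 blastomeres without Smarcb1 above FPKM 1 was gene-poor, and in the other blastomeres its lowest values were 10.3 and 5.09. Whether Smarcb1 was low or poorly captured there was not tested. The promoter of Smarcc1 is shown because this gene later stands with the genes that rose and fell together, as 250 bases before the start site on the plus strand (chr9:110131774-110132023, RefSeq, GRCm38.p6), with any GC box (GGGCGG on either strand) and CCAAT box (CCAAT on either strand) in capitals.
Smarcc1: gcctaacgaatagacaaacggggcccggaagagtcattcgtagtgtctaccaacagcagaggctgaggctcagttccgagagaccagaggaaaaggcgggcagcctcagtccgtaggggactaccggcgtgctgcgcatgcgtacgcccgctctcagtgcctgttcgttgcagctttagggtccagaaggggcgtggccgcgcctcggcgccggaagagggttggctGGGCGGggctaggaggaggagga

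Smarca5 (chr8:80699943-80739459) encodes SNF2H, the motor of the ISWI complexes that space nucleosomes, and was the member with the highest floor. Its level ran from FPKM 24.8 over 53.1 to 234 in 4-cell blastomeres and from 22.6 over 64.1 to 145 in 8-cell blastomeres. No blastomere of either stage came near FPKM 1, and the highest value of each stage was that of a gene-poor blastomere, the others reaching 151 and 102. Its coefficient of variation over blastomeres was 0.737 among 4-cell and 0.421 among 8-cell blastomeres, and 41.8% and 13.3% of genes with a median above FPKM 1 varied less. Chd1 (chr17:15704967-15772612), which encodes a remodeller that binds trimethylated H3K4 at active genes, was less abundant per length. It ran from 1.96 over 12.1 to 69.1 at the 4-cell stage and from 0.547 over 9.89 to 25.1 at the 8-cell stage. The stages overlapped, with 24 of 24 and 25 of 26 blastomeres above FPKM 1, and the lowest value of each stage was that of a gene-poor blastomere. The sequence upstream of Smarca5 (chr8:80739460-80739709, minus strand) is shown in the same way, since Smarca5 is in the strongest correlation between members given below.
Smarca5: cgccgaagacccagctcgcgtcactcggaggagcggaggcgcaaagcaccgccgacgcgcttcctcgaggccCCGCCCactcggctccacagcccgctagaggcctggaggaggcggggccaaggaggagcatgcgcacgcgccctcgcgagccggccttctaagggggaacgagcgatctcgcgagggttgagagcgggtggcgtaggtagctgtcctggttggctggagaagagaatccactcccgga

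Chaf1a and Chaf1b, which encode the p150 and p60 subunits of CAF-1, differed in level and in how many blastomeres held them, although both proteins belong to the same complex. Chaf1b (chr16:93883900-93906115) ran from FPKM 0 over 54.8 to 102 in 4-cell and from 0 over 44.3 to 120 in 8-cell blastomeres. It was above FPKM 1 in 23 of 24 and in 24 of 26 blastomeres, and the single 4-cell blastomere at 0 was gene-poor, as was the single 8-cell blastomere at 0. Chaf1a (chr17:56040416-56068026) ran from 0 over 8.29 to 51.3 in 4-cell and from 0 over 5.01 to 55.2 in 8-cell blastomeres. It was above FPKM 1 in 22 of 24 (91.7%) 4-cell blastomeres and in 16 of 26 (61.5%) 8-cell blastomeres, the lowest share of the 10 members at the 8-cell stage.

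The 8-cell blastomeres did not grade evenly in Chaf1a. Of the 10 that were not above FPKM 1, 9 were not above 0.1 either, and 13 of the 16 others were above FPKM 5. FPKM 1 stood for 56.9 Chaf1a fragments at the median 8-cell depth. The coefficient of variation of Chaf1a was 0.961 at the 4-cell stage, where 64.2% of genes varied less, and 1.42 at the 8-cell stage, where 94.9% of genes varied less. Without the gene-poor blastomeres Chaf1a was above FPKM 1 in 15 of 23 8-cell blastomeres, with a median of 7.27. The upstream sequences of both subunits are shown because they differ in the boxes found, Chaf1a at chr17:56040166-56040415 and Chaf1b at chr16:93883651-93883900, both on the plus strand.
Chaf1a: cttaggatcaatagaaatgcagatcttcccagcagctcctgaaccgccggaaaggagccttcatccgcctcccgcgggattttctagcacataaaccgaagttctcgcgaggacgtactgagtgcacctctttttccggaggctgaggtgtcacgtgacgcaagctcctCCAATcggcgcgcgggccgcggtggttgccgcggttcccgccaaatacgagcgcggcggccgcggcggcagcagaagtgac
Chaf1b: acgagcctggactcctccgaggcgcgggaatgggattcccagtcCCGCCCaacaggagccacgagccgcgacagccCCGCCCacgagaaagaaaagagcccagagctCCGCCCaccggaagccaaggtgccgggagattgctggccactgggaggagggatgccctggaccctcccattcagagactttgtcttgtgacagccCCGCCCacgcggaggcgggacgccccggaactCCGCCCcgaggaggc

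Hira (chr16:18876750-18970309) encodes the core subunit of the complex that places H3.3, and was the member most often missing at the 4-cell stage. Its level ran from FPKM 0 over 10.3 to 24.8 in 4-cell and from 0 over 9.31 to 30.5 in 8-cell blastomeres. It was above FPKM 1 in 19 of 24 (79.2%) and in 22 of 26 (84.6%) blastomeres. All 3 gene-poor blastomeres of each stage were among those without it, and of the others 19 of 21 and 22 of 23 held it. Asf1a (chr10:53596961-53609225), whose product passes H3 and H4 dimers to HIRA and to CAF-1, was present throughout. It ran from 15.3 over 55.4 to 190 at the 4-cell stage and from 5.02 over 49.9 to 236 at the 8-cell stage. The stages overlapped, but the 8-cell value of 236 came from a gene-poor blastomere, without which the 8-cell values ended at 102 and the 4-cell values still at 190.

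Upstream windows were found for 9 of the 10 members, with 2 start sites for Arid1a, and not for Chd1. A GC box, GGGCGG on either strand with overlapping matches counted separately, lay in 9 of these 10 windows of 250 bases and in 50.9% of the 16453 windows of genes listed at either stage, or in 32.7% of all 32851 windows. Chaf1a was the member window without a GC box, whereas that of Chaf1b held 5. A CCAAT box lay in 2 of the 10 windows, those of Chaf1a and Asf1a, and in 35.5% of the windows of listed genes. The member windows had a GC content of 59.6% to 81.6%, against a median of 58.0% for listed genes. These are matches of letters in a fixed window and were not tested against the expression values.

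The medians of the 10 members were close between the stages. As log2 of (8-cell median + 1) over (4-cell median + 1), the differences ran from -0.63 (Chaf1a) to 0.27 (Smarca5), and the middle 50% of blastomeres overlapped between the stages for every member. In all, 5 medians were higher and 5 lower at the 8-cell stage, and no member passed 2-fold, against 28.6% of the 7131 genes compared. The median difference was -0.06 over the members and -0.11 over all genes compared. The values of the remodeller genes were 0.11 (Smarca4), 0.21 (Arid1a), 0.18 (Smarcc1), 0.01 (Smarcb1), 0.27 (Smarca5) and -0.27 (Chd1). Those of the other chaperone genes were -0.30 (Chaf1b), -0.13 (Hira) and -0.15 (Asf1a). The sign of 5 members depended on the setting. With means of log2(FPKM + 1), Smarca4 was at -0.32, Smarcb1 at -0.16, Arid1a just below 0 and Hira at 0.04, and without the columns named NA, Asf1a was at 0.10. None of these offsets exceeded the spread between blastomeres of a stage, whose SD on the log2(FPKM + 1) scale was between 0.61 (Smarca5, 8-cell) and 1.99 (Smarcb1, 8-cell). With the same means in place of medians, Chaf1a alone passed 2-fold, at -1.19. Without the columns named NA, Smarcb1 moved from 0.01 to -0.61, and without the gene-poor blastomeres the differences ran from -0.44 (Asf1a) to 0.76 (Arid1a), with Smarcc1 at 0.56, Smarca5 at 0.52 and Chaf1a at -0.10.

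**Figure D2:**
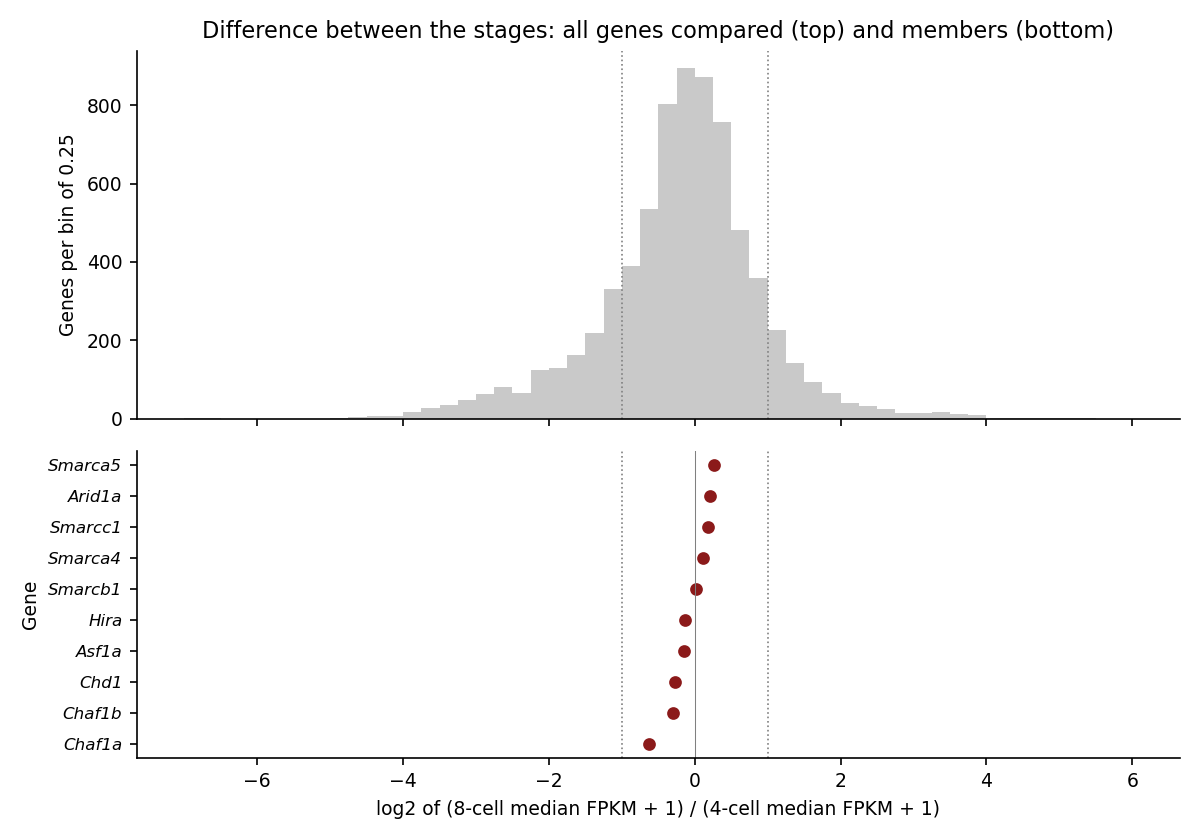
The upper panel counts genes by log2 of (8-cell median FPKM + 1) over (4-cell median FPKM + 1) for the 7131 genes compared, the lower panel places the 10 members on the same axis, and dotted lines mark a 2-fold difference. All members lie between -0.63 and 0.27, inside the lines that 28.6% of genes pass.

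From blastomere to blastomere, 6 members rose and fell together at the 4-cell stage, namely Smarca4, Smarcc1, Arid1a, Smarca5, Chd1 and Chaf1a. This group was drawn after the values were seen and is given as a description. Over 24 blastomeres the rank correlation (Spearman's rho) of its 15 pairs was between 0.46 and 0.79 with a median of 0.58, and 12 of the 15 were above 0.5. It was strongest between Smarca5 and Chd1 at 0.79, between Smarca5 and Chaf1a at 0.73 and between Chd1 and Chaf1a at 0.70. Different machines, an ISWI motor, a CHD motor and a CAF-1 subunit, thus had their high and low values in largely the same blastomeres. Of all 45 member pairs 13 were above 0.5 at the 4-cell stage, and the same held for 4.22% of pairs of genes with a median above FPKM 1. The only pair above 0.5 outside the group was Smarcb1 with Hira, at 0.63.

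Asf1a ran opposite to part of that group. Its rank correlation at the 4-cell stage was -0.71 with Chd1, -0.65 with Smarca5 and -0.50 with Chaf1a, but -0.11 with Arid1a and 0.40 with Chaf1b. In all, 2 member pairs were below -0.5, Asf1a with Chd1 and Asf1a with Smarca5, against 2.02% of gene pairs. The subunits of CAF-1 showed little relation, with a correlation of -0.10 between Chaf1a and Chaf1b, and of 0.14 without the gene-poor blastomeres. Smarcb1 stood at -0.25 against Smarca4, -0.14 against Smarcc1 and -0.21 against Arid1a, and at 0.02, 0.17 and 0.02 with gene number regressed out of the ranks. Without the gene-poor blastomeres these rank correlations were -0.09, 0.01 and -0.09. Pearson's correlation of log2 values over all 24 blastomeres gave -0.65, -0.27 and -0.34.

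At the 8-cell stage the same 15 pairs had a median of 0.33, from 0.07 to 0.58, over 26 blastomeres. Since the group was drawn for its high 4-cell values, a lower value at the other stage follows in part from that choice. Of all 45 pairs 2 were above 0.5, Smarcc1 with Chaf1a at 0.58 and Smarcc1 with Hira at 0.51, against 1.82% of gene pairs. No pair was below -0.5, against 1.31% of gene pairs, and the lowest was Hira with Asf1a at -0.44. These pairs changed without the 3 gene-poor blastomeres, where the 2 named pairs fell to 0.47 and 0.36, Chd1 with Hira was the only pair above 0.5 at 0.55, and Smarcb1 with Chaf1a went from -0.20 to -0.54. Smarca5 with Chd1 stood at 0.33, Smarca5 with Chaf1a at 0.35 and Chd1 with Asf1a at -0.16. The first of these was 0.19 without the gene-poor blastomeres and 0.20 without the columns named NA, and the last ranged from -0.30 to -0.10 when single blastomeres were left out. The difference between the stages in these correlations was not tested.

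**Figure D3:**
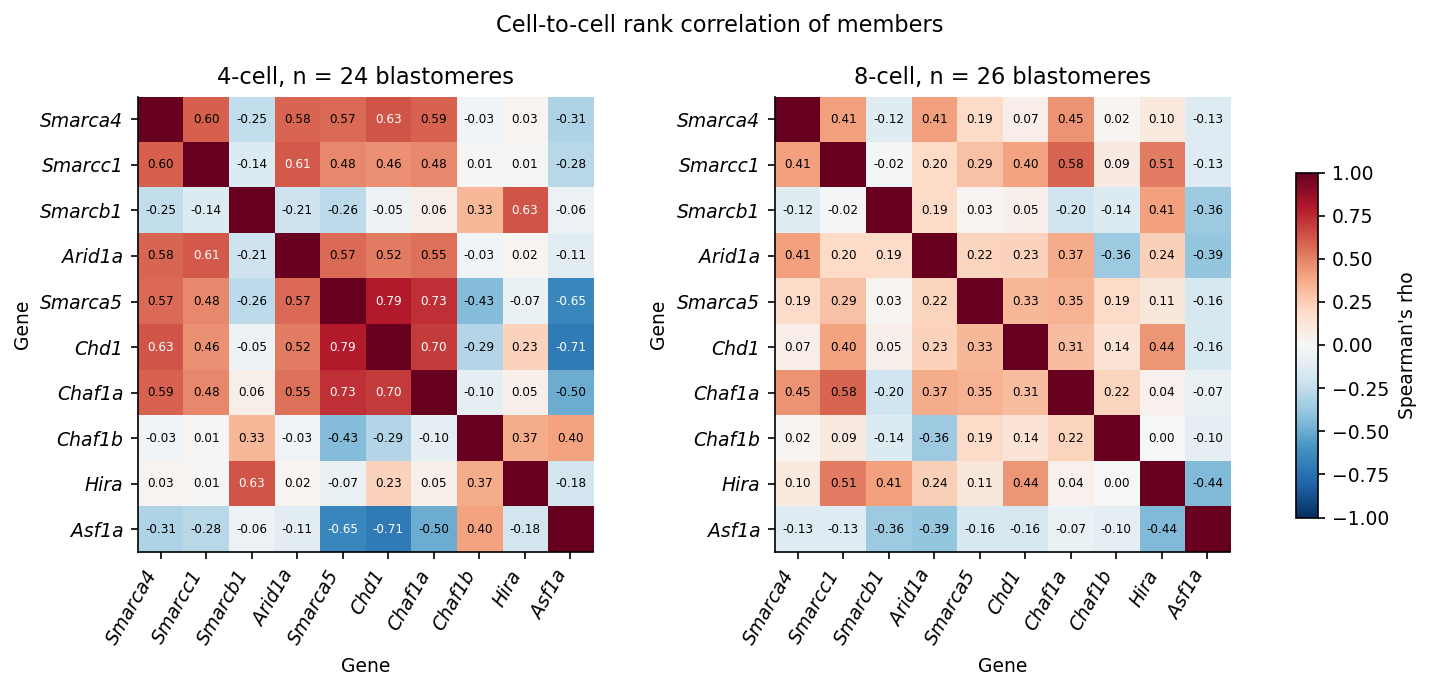
Each cell gives Spearman's rho of FPKM between a pair of members over 24 4-cell (left) or 26 8-cell (right) blastomeres, coloured from -1 (blue) to 1 (red). At the 4-cell stage Smarca4, Smarcc1, Arid1a, Smarca5, Chd1 and Chaf1a form a red group with rho of 0.46 to 0.79 and Asf1a is blue against Chd1 (-0.71) and Smarca5 (-0.65), and at the 8-cell stage 2 pairs exceed 0.5.

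The points of these correlations share more than the genes. Blastomeres of an embryo could not be told from those of another, and all genes of a blastomere share its library and its denominator. The number of genes above FPKM 1 also moved with the members at the 4-cell stage, with a rank correlation of -0.54 for Smarcc1, -0.53 for Smarca4, -0.52 for Smarca5, -0.45 for Arid1a, -0.42 for Chd1 and -0.26 for Chaf1a. The median over all genes with a median above FPKM 1 was 0.19, and 1.77% of them were lower than Smarcc1 and 10.4% lower than Chaf1a. Smarcb1 stood at 0.50 and Asf1a at 0.16. With gene number regressed out of the ranks, the 15 pairs kept positive values of 0.28 to 0.73 with a median of 0.45, and 6 of all 45 pairs were above 0.5. Smarca5 with Chd1 was then 0.73 and Chd1 with Asf1a -0.72. The negative correlations were smaller with another denominator, Chd1 with Asf1a at -0.54 and Smarca5 with Asf1a at -0.50 when the listed genes were scaled to one sum, and at -0.61 and -0.54 with size factors. Without the 3 gene-poor 4-cell blastomeres the 15 pairs lay between 0.40 and 0.72, Smarca5 with Chd1 at 0.72, and Smarcb1 with Hira fell to 0.47. At the 8-cell stage the members' correlations with gene number lay between -0.19 (Asf1a) and 0.33 (Chaf1a).

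**Figure D4:**
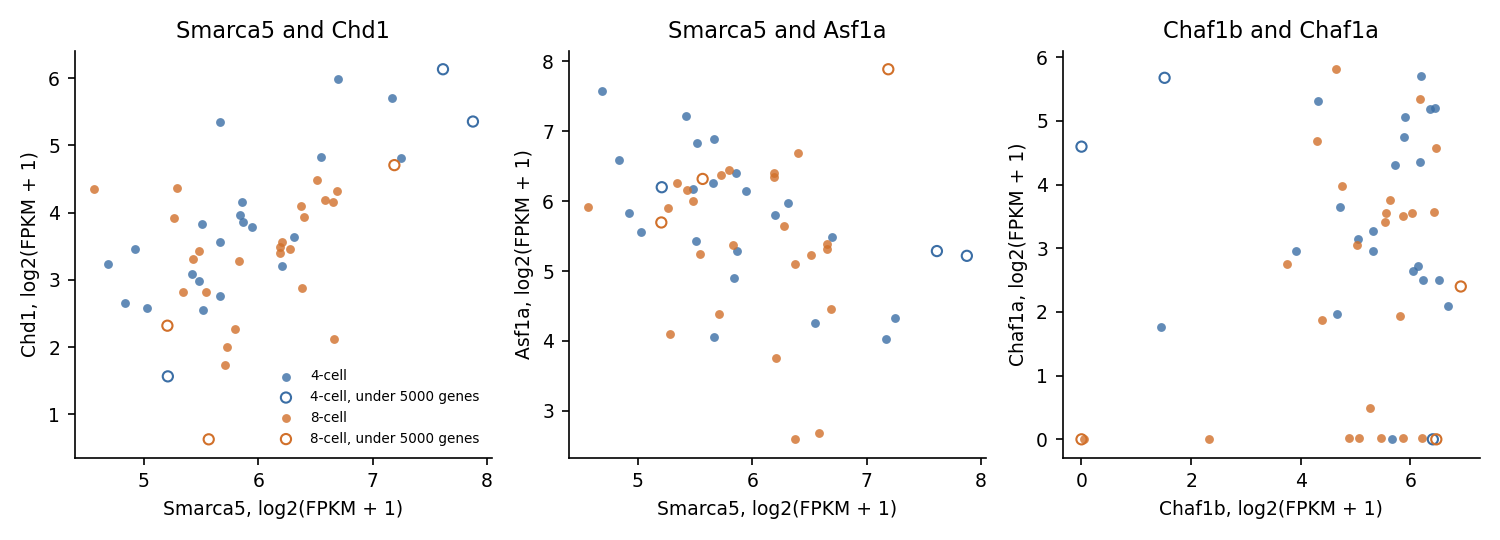
Axes are log2(FPKM + 1) of the named genes, points are blastomeres coloured by stage, and open circles have fewer than 5000 genes above FPKM 1. In 4-cell blastomeres Chd1 climbs with Smarca5 (rho 0.79) and Asf1a falls with it (rho -0.65), while Chaf1a lies at or near 0 in several blastomeres with high Chaf1b.

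The gene-poor blastomeres were not uniformly low in members. The 4-cell blastomere with 3009 genes held FPKM 171 of Smarca4, 195 of Smarca5, 69.1 of Chd1 and 50.9 of Smarcc1, and was listed at 0 for Smarcb1, Chaf1b and Hira. The one with 3699 genes held 100 of Smarca4, 234 of Smarca5 and 50.2 of Chaf1a, with Smarcb1 at 0, Hira at 0.566 and Chaf1b at 1.86. Both thus had the highest Smarca4 and Smarca5 values of the stage and were listed at 0 for the core SWI/SNF gene Smarcb1. The third, with 4939 genes, went the other way, with 21 of Smarca4, 36 of Smarca5, the lowest Chd1 value of the stage at 1.96, and 84.0 of Chaf1b. At the 8-cell stage the blastomere with 3548 genes, which also had the fewest fragments at 2.33 M, held the highest values of Smarca5 (145), Chd1 (25.1), Chaf1b (120) and Asf1a (236) and the lowest of Smarca4 (2.04). No other 8-cell blastomere had fewer than 12.6 M fragments. The study set its quality limit in uniquely mapped read pairs, so the estimate of 2.33 M cannot be set against it directly. The blastomere with 4963 genes held 78.8 of Asf1a and 46.4 of Smarca5 and had Smarcb1, Chaf1a, Chaf1b and Hira at 0. The part that RNA quality or capture played in these values was not tested.

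A paralogue was compared for 6 of the 10 members, within the same blastomere and per length, and 5 of these 6 members had the higher median at each stage whose table lists both genes. As log2 of (member + 1) over (paralogue + 1), the median at the 4-cell stage was 3.07 for Smarca4 over Smarca2, which encodes the alternative BRM motor, 1.74 for Smarcc1 over Smarcc2, 3.27 for Arid1a over Arid1b and 3.16 for Chd1 over Chd2. The member was higher in 23, 22, 24 and 24 of 24 blastomeres. At the 8-cell stage the medians were 3.23, 2.49, 3.13 and 3.35, and the member was higher in 23, 24, 26 and 26 of 26. The size of these ratios depends on the pseudocount where the paralogue is low. With 0.1 in place of 1 they were 5.05 and 4.81 for Arid1a, 5.82 and 6.5 for Chd1, whose paralogue Chd2 was listed at 0 in most blastomeres, and 4.09 for Smarca4 at the 8-cell stage. Smarca2 itself was above FPKM 1 in 14 blastomeres of each stage, with medians of 3.72 and 1.6, whereas Chd2 had a median of 0 at both stages. Smarca1, the other ISWI motor, reached at most FPKM 0.868 in a 4-cell blastomere and was listed at 0 in the other 23, while Smarca5 was at least 24.8. The 8-cell table does not list Smarca1.

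Asf1 was the exception, as its 2 genes were of like abundance. Asf1b had a median of FPKM 86.1 at the 4-cell stage (0 to 344) and of 43.9 at the 8-cell stage (0 to 248). Asf1b was the higher of both in 14 of 24 4-cell blastomeres and Asf1a in 14 of 26 8-cell blastomeres, with median log2 ratios of Asf1a over Asf1b of -0.49 and 0.13. The ratio ran from -4.05 to 5.28 and from -2.82 to 7.89. The highest values came from gene-poor blastomeres with Asf1b at 0, where the pseudocount sets the ratio. Without the gene-poor blastomeres the ratio ended at 2.65 and at 5.83. Asf1a was at most 102 in the other 8-cell blastomeres, so the 5.83 also rests on Asf1b below FPKM 1, where the pseudocount matters. Asf1a was above FPKM 1 in all blastomeres, and Asf1b was not in 2 4-cell and 4 8-cell blastomeres, so that no blastomere lacked both.

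Partner subunits differed in proportion between blastomeres. Chaf1b exceeded Chaf1a in 20 of 24 and in 23 of 26 blastomeres, with a median log2 ratio of Chaf1a over Chaf1b of -1.62 and -2.34. In 8 of the 26 8-cell blastomeres Chaf1b was above FPKM 1 and Chaf1a was not, and the reverse was seen in none. At the 4-cell stage these numbers were 2 and 1. The ratio of Smarca4 to Smarcb1, the motor and a core subunit of the same complex, had medians of -0.10 and 0.18 and ranged from -1.81 to 7.42 and from -4.20 to 5.16. Its upper ends came from gene-poor blastomeres with Smarcb1 at or near 0, where the pseudocount sets the ratio, and without these it ended at 1.68 and 2.42. Hira had a log2 ratio with medians of 0.67 and 1.63 over Ubn1 (0.86 and 2.42 with a pseudocount of 0.1), which encodes the H3.3-binding ubinuclein, and of 0.65 and 0.84 over Cabin1. Ubn1 itself had medians of 3.90 and 2.02, and Cabin1 of 4.47 and 2.15.

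**Figure D5:**
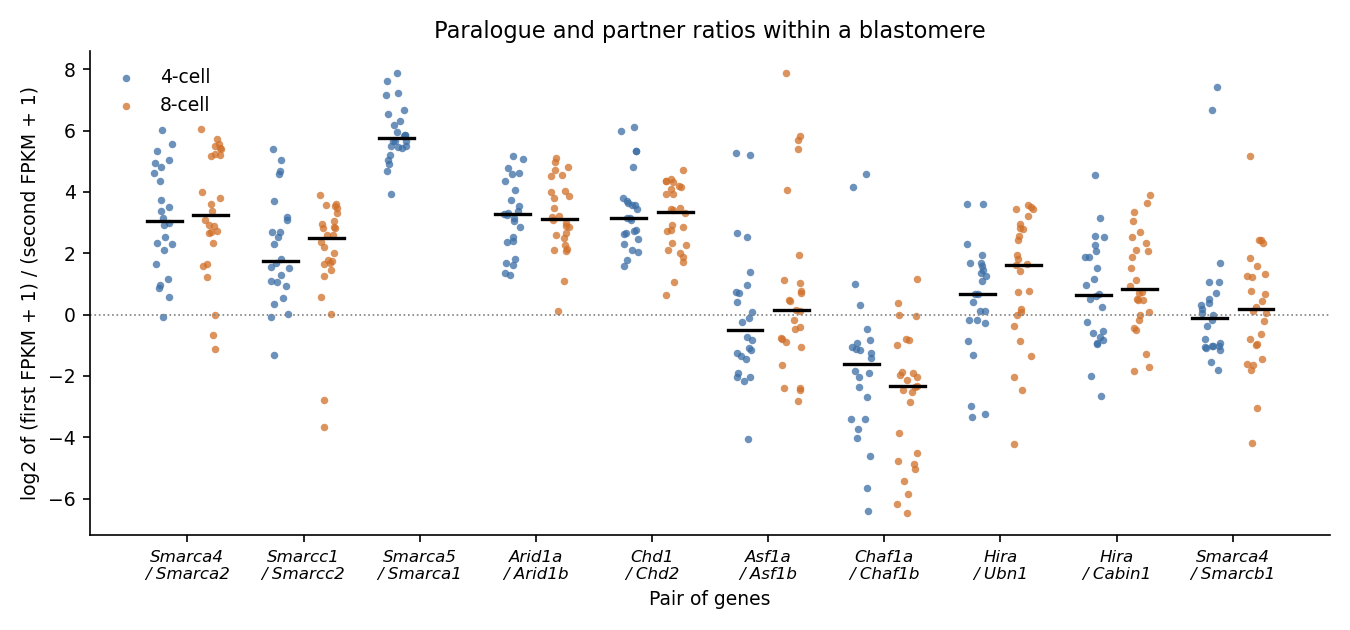
Each point is a blastomere, the y axis is log2 of (first gene FPKM + 1) over (second gene FPKM + 1), black bars are medians and the dotted line is an even ratio. Paralogue ratios of Arid1a and Chd1 are above 0 in all blastomeres, those of Asf1a to Asf1b straddle 0 with medians of -0.49 and 0.13, and Chaf1a to Chaf1b lies mostly below 0.

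The other remodeller and chaperone genes were taken from 6 lists, which hold 85 genes, none of them a member. Medians above FPKM 1 were found for 66 of the 84 listed at the 4-cell stage and for 63 of the 83 listed at the 8-cell stage. Over all listed genes these numbers were 6763 of 15218 and 6234 of 15342. Of the 66 genes compared, 2 were past 2-fold higher and 6 past 2-fold lower at the 8-cell stage, which is 12.1% against 28.6% of all genes compared. The median difference was 0.06 over these genes and -0.11 over all. The families had medians of -0.10 for 15 SWI/SNF genes, 0.21 for 11 ISWI genes, -0.01 for 10 CHD and NuRD genes, 0.13 for 9 INO80, SRCAP and other remodellers, 0.05 for 11 H3-H4 chaperones and 0.12 for 10 H2A-H2B and other chaperones.

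Within the SWI/SNF list 3 of 15 genes were past 2-fold (20%, against 28.6% of all genes compared). Dpf3 went from a median of FPKM 3.01 to 0.110, Bicral from 2.47 to 0.289 and Bcl7a from 5.53 to 1.90. The highest differences of that list were those of Smarcd2 (6.27 to 9.61) and Ss18 (50.4 to 68.3), both under 2-fold. Among the ISWI genes Baz1b, which encodes the WSTF partner of SNF2H, went from 7.96 to 3.43 (log2 -1.02) and Chrac1 from 35.6 to 21.5. Baz2a, the TIP5 partner of SNF2H in the nucleolar complex, went from 13.7 to 25.7 and Rsf1 from 2.31 to 4.57. These partners of Smarca5 thus lay on both sides, while Smarca5 itself differed by 0.27.

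None of the 10 CHD and NuRD genes compared passed 2-fold on the scale of median + 1. The highest were the deacetylase gene Hdac2 (12.1 to 23.9, log2 0.93) and Mta3 (61.0 to 106, log2 0.79), and the lowest Chd8 (4.75 to 2.23, log2 -0.83) and Chd7 (6.46 to 3.84). In the INO80, SRCAP and other group, Rad54l2 went from 3.94 to 10.5 and Ercc6, the Cockayne syndrome B gene, from 3.23 to 0.720, both past 2-fold. Srcap (2.43 to 3.58) and Ruvbl1 (177 to 134) did not pass it.

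Among the H3-H4 chaperones, Daxx, which places H3.3 at heterochromatin with ATRX, had the largest difference of the 6 lists on the scale of median + 1, which shrinks the differences of low genes such as Dpf3. It went from a median of FPKM 1.84 (0 to 44.5) with 13 of 24 blastomeres above FPKM 1 to 10.4 (0 to 30.6) with 19 of 26, a log2 difference of 2.0. Hira, which places the same variant elsewhere, differed by -0.13. Spty2d1 (9.59 to 18), Asf1b (86.1 to 43.9, log2 -0.96) and Cabin1 (4.47 to 2.15, log2 -0.79) were under 2-fold on this scale. Among chaperones of H2A and H2B, the oocyte nucleoplasmin gene Npm2 went from 31 to 14.7 (log2 -1.03), and Anp32e from 55.7 to 30.2. Ssrp1, a subunit of FACT, went from 27 to 52.7 (log2 0.94) and Nap1l1 from 99.0 to 156.

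For each member the genes whose values ran most alike over blastomeres were those with the highest mean of the 4-cell and 8-cell rank correlations, among 5954 other genes above FPKM 1 in at least 50% of the blastomeres of each stage. The closest was Timm29 for Smarca4 (0.73 over 24 4-cell and 0.69 over 26 8-cell blastomeres), Gspt1 for Smarcc1 (0.64 and 0.70), Oaz2 for Smarcb1 (0.78 and 0.52) and Ulk1 for Arid1a (0.57 and 0.80). For Smarca5 it was Ctdp1 (0.74 and 0.58), for Chd1 it was Igf2r (0.71 and 0.64), for Chaf1a it was Atg9a (0.81 and 0.60) and for Chaf1b it was Pgk1 (0.38 and 0.77). For Hira it was Setd1a (0.59 and 0.54) and for Asf1a it was Psma2 (0.59 and 0.63). Next in line came Tmppe, Topors, Icam4, Zbtb10, Wdr26, Rock1, Pla2g15, Ube2v1, Psme4 and Cdk4, in the same order of members, with mean correlations from 0.53 (Psme4 with Hira) to 0.68 (Pla2g15 with Chaf1a). No member was among the 2 genes most like another member, so that the group seen at the 4-cell stage was not the closest company of its genes over both stages. These are the highest of many correlations and are given as a description.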

How the data were processed

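Single blastomeres of rainbow embryos were profiled with Smart-seq2. Per the labels and the study's methods, the authors aligned reads with STAR 2.5.1b to mm10, counted uniquely mapped reads on Refseq genes with HTSeq, and deposited gene tables of FPKM values; which gene lengths and totals entered them is not given in the sources used here. The 50 columns used match no sample, so each stage was 1 sample without replicates and no test was run.

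The members and gene lists were chosen with earlier results of these data known. Stage differences were log2 of (median + 1), over genes with a median above 1 in at least 1 stage. Correlations were Spearman's over blastomeres, and backgrounds were all pairs of genes with a median above 1. Fragments were estimated from the steps of low values of genes with 1 curated transcript; for at least 91.1% of values up to 10 fragments in each blastomere this gave whole numbers within 0.1. Exon lengths are of GRCm38.p6 RefSeq, so fragments of genes with several transcripts are approximate, and reads without molecular identifiers make the limits cover counting error only. The named genes are the 10 members, the 2 genes most like each, the members' paralogues and partners, and in each list the 2 highest and 2 lowest differences among genes with a median above 1; the genes past 2-fold are named besides. Python 3.11.15, numpy 2.4.6 and pandas 2.3.3 were used, and the computations were tested on simulated data. Thresholds of 0.1 and 5, a pseudocount of 0.1, other scalings, and leaving out blastomeres were tried as alternatives. The transposon tables and the 5-cell and 6-cell samples were not analysed here.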

Additional observations from a re-analysis of the deposited data

How the results depend on the processing

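No paired analysis was possible because nothing in the headers ties a blastomere to an embryo, a lineage or a replicate number, and the planned comparisons by embryo and by lineage were not run for the same reason. The number of members above FPKM 1 in all 8-cell blastomeres was 3, and 5 without the gene-poor blastomeres or at a threshold of 0.1. At the 4-cell stage it went from 5 to 7 without the gene-poor blastomeres, which is within the limit for counts given below. The median of the 45 correlations at the 4-cell stage was 0.03, and 0.23 without the gene-poor blastomeres and 0.18 with gene number regressed out, and ranged from -0.02 to 0.13 when single blastomeres were left out, the highest without the blastomere of 3009 genes. The pairs above 0.5 at the 4-cell stage went from 13 to 6 with gene number regressed out. At the 8-cell stage they went from 2 to 4 without the columns named NA, to 5 with Pearson's correlation of log2 values, to 1 without the gene-poor blastomeres or with gene number regressed out, and ranged from 1 to 3 when single blastomeres were left out. Members with a higher 8-cell median went from 5 to 3 and those past 2-fold from 0 to 1 with means of log2 values. The share of all genes past 2-fold was 28.6% and became 15% without the filter on low values. The causes were not tested. Of all comparisons of summary values with an alternative, 76 stayed within the limits set (1.5 times for counts and levels, 0.1 for correlations). Among values of single members and pairs 366 stayed within them and 28 did not, most of them correlations and log2 ratios with a pseudocount of 0.1. No member was past 2-fold in one direction and turned to the other, but the sign of the smaller stage differences of Smarca4, Smarcb1, Arid1a, Hira and Asf1a turned in at least 1 alternative. In the shallowest blastomere FPKM 1 stood for 3.87 fragments of Smarcb1, the shortest member, and the part of depth in the presence calls was not tested.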
